A study of Mus musculus with 6 samples.

Results

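The killer lectin-like receptors described here are the products of 10 genes, Klra1, Klra3, Klra6, Klra7, Klra9, Klrc1, Klrc2, Klrd1, Klrk1 and Klrg1, chosen by symbol from the 78275 genes of the count table. All 10 were found, among 31 rows whose symbol starts with Klr, and all 10 passed the filter on low counts. Sorted CD8 T cells (CD4-CD8+, TCRβ high) of 3 WT and 3 BIT mice gave 1 total RNA library per mouse, so that the effect of the BIT allele on the transcripts of peripheral CD8 T cells could be compared. All mice were labelled male, 9 to 10 weeks old, and the sorted cells were labelled over 98% pure. Both groups had the C57BL/6 background. BIT mice were homozygous for an allele (β5iβ5t) in which the sequence encoding β5t, the thymoproteasome subunit of the Psmb11 gene, was placed at the Psmb8 locus, which normally encodes the immunoproteasome subunit β5i. BIT cells therefore differed from WT cells in both subunits, and the study worked with a single BIT line unless it said otherwise. The tissue label was lymph nodes, whereas the protocol of the labels named lymph nodes and spleens.

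Killer lectin-like receptors are C-type lectin-like membrane proteins best known from NK cells, where they read the level of MHC class I and of stress-induced ligands on other cells. Most Ly49 receptors, encoded by the Klra genes, bind classical MHC class I, and inhibitory members carry an ITIM, a short tyrosine motif that recruits phosphatases, in the cytoplasmic tail. CD94 (Klrd1) pairs with NKG2A (Klrc1, inhibitory) or NKG2C (Klrc2, activating) and recognizes the non-classical molecule Qa-1, whereas NKG2D (Klrk1) and KLRG1 (Klrg1) act without CD94 and bind stress ligands and cadherins, respectively. In CD8 T cells these receptors are typical of activated, memory and memory-phenotype cells rather than naive cells.

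The 10 genes lie on chromosome 6 (GRCm39; Gencode M39 positions). Klrg1 lies apart from the others, at chr6:122246981-122259914. Klrd1 (chr6:129568677-129575738), Klrk1 (chr6:129587286-129600827), Klrc2 (chr6:129624459-129637652) and Klrc1 (chr6:129642978-129655936) follow each other, and the Ly49 genes come next, from Klra6 (chr6:129989989-130003957) through Klra9 (chr6:130155636-130171258), Klra7 (chr6:130195566-130210370) and Klra3 (chr6:130300233-130314545) to Klra1 (chr6:130340880-130363837). Klrd1 is on the plus strand and the other 9 genes are on the minus strand.

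The Ly49 genes are close copies of one another, which bears on how far reads can tell them apart. The first 100 coding bases of the canonical transcript, which encode the start of the cytoplasmic tail, are shown 5′ to 3′ as read from GRCm39, with capitals at the bases that differ from Klra7. The 5 sequences are alike in 78 of the 100 columns, with 9 differences from Klra7 in Klra6, 10 in Klra3, 11 in Klra9 and 14 in Klra1.
Klra7 (chr6:130208481-130208580, minus strand): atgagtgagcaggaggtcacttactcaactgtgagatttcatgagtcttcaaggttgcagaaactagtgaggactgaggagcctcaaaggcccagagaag
Klra1 (chr6:130357526-130357625, minus strand): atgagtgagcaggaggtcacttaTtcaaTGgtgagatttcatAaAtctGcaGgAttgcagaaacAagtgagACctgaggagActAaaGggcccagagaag
Klra3 (chr6:130312663-130312762, minus strand): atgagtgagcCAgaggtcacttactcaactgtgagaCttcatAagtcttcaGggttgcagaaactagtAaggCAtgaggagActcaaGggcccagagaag
Klra6 (chr6:130002083-130002182, minus strand): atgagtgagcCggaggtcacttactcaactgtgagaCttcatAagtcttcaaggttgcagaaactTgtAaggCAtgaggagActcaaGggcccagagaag
Klra9 (chr6:130168165-130168264, minus strand): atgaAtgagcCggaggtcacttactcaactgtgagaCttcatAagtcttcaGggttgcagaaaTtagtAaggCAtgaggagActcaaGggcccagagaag

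Over the whole aligned coding sequence, Klra3 and Klra9 were identical at 95.9% of bases, Klra6 and Klra9 at 91.6%, Klra3 and Klra6 at 91.0% and Klra1 and Klra7 at 87.8%, and the other pairs were between 80.1% and 82.5%. Exact stretches of 100 bases, the read length of the study, were nevertheless mostly private to each gene. None of the 100-base stretches in the annotated transcripts of Klra1, Klra6, Klrd1, Klrk1 or Klrg1 occurred in another gene, and the shared part was 0.968% in Klra7, 1.28% in Klra3 and 9.38% in Klra9. The estimated counts of Klra1, Klra3, Klra6 and Klra9 were whole numbers in all 6 libraries, whereas those of Klra7 were fractional and were completed to whole numbers by Gm66837, a neighbouring row that shares sequence with it.

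Klrc1 and Klrc2 share more. A stretch near the end of both coding sequences is identical over 100 bases and is shown because a read from it matches both genes, so that its mate alone can tell them apart.
Klrc1 (chr6:129651825-129651924, minus strand): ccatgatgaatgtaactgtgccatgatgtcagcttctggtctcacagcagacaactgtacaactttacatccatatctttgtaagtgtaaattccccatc
Klrc2 (chr6:129633337-129633436, minus strand): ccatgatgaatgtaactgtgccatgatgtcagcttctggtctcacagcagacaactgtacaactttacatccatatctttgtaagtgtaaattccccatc
The stretch of 100 bases in which they are least alike, with 31 differences (capitals in Klrc2), encodes an earlier part of the proteins.
Klrc1 (chr6:129655261-129655360, minus strand): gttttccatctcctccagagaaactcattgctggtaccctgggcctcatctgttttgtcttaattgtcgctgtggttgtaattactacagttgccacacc
Klrc2 (chr6:129636943-129637042, minus strand): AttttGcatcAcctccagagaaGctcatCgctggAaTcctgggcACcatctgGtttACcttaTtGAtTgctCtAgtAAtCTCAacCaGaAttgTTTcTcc
Of all 100-base stretches, 14.1% in Klrc1 and 7.03% in Klrc2 occurred in another gene. Both genes had fractional counts in every library, so the sum of Klrc1, Klrc2 and Klrc3, which does not depend on how shared reads were divided, is given beside their single values.

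Total counts per library were between 37467678 and 52922675. Psmb8 had 8024 to 10790 counts in WT and 59 to 73 in BIT libraries, and Psmb11 had 0 counts in all WT libraries and 1226 to 1926 in BIT libraries, as labelled. The transcripts that define CD8 T cells (Cd8a, Cd8b1, Cd3e, Cd3g, Trac and Trbc2) summed to 4136 to 4521 counts scaled to the library total (CPM, counts per 1000000 counts) in WT and 4252 to 4504 CPM in BIT libraries. WT replicate 3 went against its label: it held 66626 counts of Xist, expressed from the inactive X chromosome of females, and 0 counts over 4 Y-linked genes, which summed to between 8474 and 12329 in the other 5 libraries. The first principal component, 34.4% of the variance, placed replicate 3 of both groups (54.6 in WT and 28.6 in BIT) apart from the other 4 libraries (−36.5 to −3.31). The fold change of each member is therefore also given without WT replicate 3. In bulk RNA, a smaller fraction of cells that express a gene and less RNA per cell cannot be told apart.

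No member passed the test across all genes. The main test was limma-voom after quantile normalization, with a gene called when its p, adjusted over all genes by Benjamini and Hochberg, was below 0.05, and 22 of 16105 genes (0.137%) were called. The number of members called was 0 of 10, and the lowest adjusted p was 0.236, for Klra1. At an unadjusted p below 0.05, which 8.57% of all genes passed, 6 members passed, namely the 5 Ly49 genes, higher in BIT mice (685 genes or 4.25% of all genes passed in that direction), and Klrd1, lower in BIT mice (4.32% of all genes). DESeq2, edgeR's quasi-likelihood test and TMM normalization likewise called 0 members, with 3 members (Klra1, Klra7 and Klrd1) at an unadjusted p below 0.05 under each of them. The log2 fold change was above 0 in 7 members, with a median of 0.75 over the 10 members and 1.13 over the 5 Ly49 genes, compared with 0.01 over all genes tested, of which 52.3% were above 0.

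**Figure D1:**
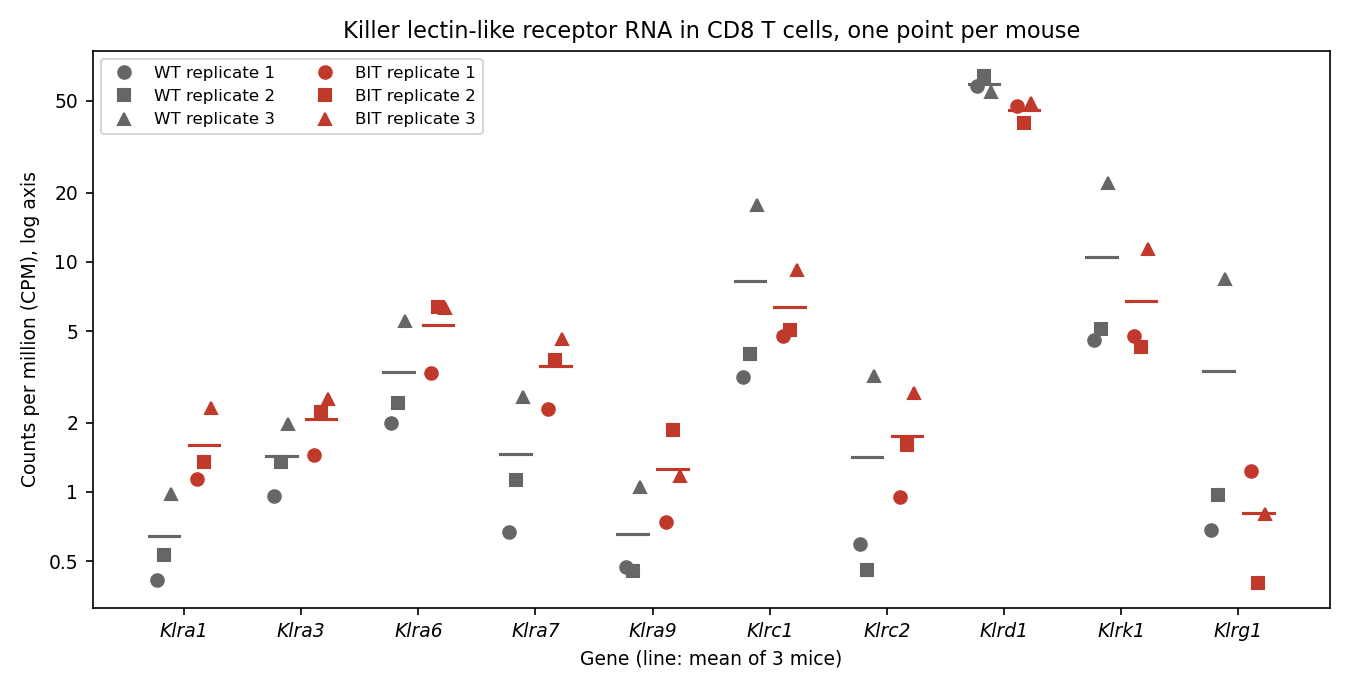
CPM of each member in each mouse (vertical log axis), WT in grey and BIT in red, with a marker shape for each replicate and a line at the mean of 3 mice. Klrd1 sits far above the other genes, between 40.2 and 64.1 CPM, and the grey triangle of WT replicate 3 is the highest point of Klrc1, Klrc2, Klrk1 and Klrg1.

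Compared per length of the canonical transcript, Klrd1 was the most abundant member by a wide margin, with 61.2 ± 4.91 CPM per kb in WT and 47.3 ± 4.83 in BIT mice (SD, n = 3 mice, as for all errors below). In WT mice the next mean levels were 4.17 ± 4.11 CPM per kb for Klrc1, 3.14 ± 2.94 for Klrk1 and 2.86 ± 1.66 for Klra6. Klrc2 (1.98 ± 2.15), Klrg1 (1.63 ± 2.13), Klra7 (1.41 ± 0.968) and Klra3 (1.15 ± 0.411) followed, and Klra9 (0.515 ± 0.265) and Klra1 (0.385 ± 0.177) were lowest. From Klrc1 downward, neighbours in this order differed by less than the sum of their SDs, so that only the first place was separated from the next one beyond the spread between mice. In BIT mice, Klra6 (4.57 ± 1.51 CPM per kb) and Klra7 (3.44 ± 1.14) had the next highest means after Klrd1, ahead of Klrc1 (3.20 ± 1.26), Klrc2 (2.44 ± 1.22), Klrk1 (2.02 ± 1.17) and Klra3 (1.66 ± 0.449). Klra9 (0.980 ± 0.439), Klra1 (0.963 ± 0.378) and Klrg1 (0.394 ± 0.200) were lowest there, and again only Klrd1 was apart from its neighbour by more than the sum of the SDs. The places of Klrc2, Klrk1 and Klra7 depended on the length used. Over all annotated exons the WT means were 0.244 CPM per kb for Klrc2, 1.47 for Klrk1 and 0.906 for Klra7, the last below Klra3 (1.07), and in BIT mice Klra7 (2.20) was below Klrc1 (3.20).

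Klra1 encodes Ly49A, an inhibitory receptor. It had 22, 27 and 39 counts in WT replicates 1, 2 and 3 and 51, 57 and 87 counts in BIT replicates 1, 2 and 3, or 0.416, 0.534 and 0.976 CPM against 1.14, 1.36 and 2.32 CPM. It was the one Ly49 gene in which every BIT mouse lay above every WT mouse in CPM, as did 6.09% of all genes. The mean was 0.642 ± 0.296 CPM in WT and 1.61 ± 0.630 CPM in BIT mice, but the fitted log2 fold change of 1.51 ± 0.30 (SE) had an adjusted p of 0.236 in limma-voom, so the difference was not called. Without WT replicate 3 the log2 fold change was 1.67, with an adjusted p of 0.185 in limma-voom. Without WT replicate 1 it was lower, at 1.38, with an adjusted p of 0.566.

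Klra7 encodes Ly49G, also inhibitory, and with Klra1 had the largest differences of the Ly49 members. In limma-voom the log2 fold change was larger in Klra7, whereas the ratio of mean CPM was larger in Klra1, at 2.50 against 2.43, as was the log2 fold change in edgeR, at 1.32 against 1.3. Its levels were 0.669, 1.12 and 2.58 CPM in WT and 2.28, 3.73 and 4.62 CPM in BIT mice. BIT replicate 1 lay just below WT replicate 3, so the groups overlapped in CPM, although the other 2 BIT mice were above all WT mice. Its log2 fold change was 1.58 ± 0.35 (SE), with an adjusted p of 0.312 in limma-voom, and it became 1.94, with an adjusted p of 0.0990, when WT replicate 3 was left out. When WT replicate 1 was left out instead, it fell to 1.22, with an adjusted p of 0.625.

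Klra6 encodes Ly49F and was the most abundant Ly49 transcript in both groups. It stood at 2.00, 2.43 and 5.53 CPM in WT and at 3.28, 6.37 and 6.30 CPM in BIT mice. WT replicate 3 again reached into the BIT range, above BIT replicate 1. A log2 fold change of 0.82 ± 0.32 (SE) was fitted, which had an adjusted p of 0.548 in limma-voom. Without WT replicate 3 it was 1.13 (adjusted p = 0.269), and without WT replicate 1 it was 0.60 (adjusted p = 0.713 in limma-voom).

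Klra3 and Klra9, the most similar pair of the family, encode Ly49C and Ly49I. Klra3 had 0.964, 1.34 and 1.98 CPM in WT and 1.45, 2.23 and 2.54 CPM in BIT mice, with a log2 fold change of 0.69 ± 0.26 (SE). Klra9 had 25, 23 and 42 counts in WT and 33, 78 and 44 in BIT mice, and its log2 fold change was 1.13 ± 0.42 (SE). In both genes WT replicate 3 lay above BIT replicate 1 in CPM. The adjusted p-values from limma-voom were 0.547 for Klra3 and 0.539 for Klra9. Without WT replicate 3, the log2 fold changes were 0.78 for Klra3 (adjusted p = 0.376) and 1.32 for Klra9 (adjusted p = 0.363). Without WT replicate 1, they were lower, at 0.54 (adjusted p = 0.708) and 1.08 (adjusted p = 0.686 in limma-voom). Klra9 rested on the fewest counts, and its log2 fold change without BIT replicate 2 was 0.74.

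Whether the groups overlapped depended on the scaling for 3 of these genes. After quantile normalization, Klra3, Klra7 and Klra9 joined Klra1 with every BIT mouse above every WT mouse, as in 7.42% of all genes, whereas with TMM scaling, as in CPM, Klra1 was alone. Klra6 overlapped on all 3 scales. When WT replicate 3 was left out, the BIT mice were above the other WT mice in all 5 Ly49 genes in CPM. With 3 mice against 3, the exact permutation test cannot go below p = 0.1, which is the value Klra1 reached.

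The sum over the 14 rows whose symbol starts with Klra and a digit, called the Ly49 family sum here, does not depend on how reads were divided among them. The sum does depend on how reads were divided between Klra7 and Gm66837, a row that it leaves out. It came to 5.37, 6.70 and 13.3 CPM in WT and 10.2, 17.3 and 18.1 CPM in BIT mice. WT replicate 3 lay between BIT replicate 1 and the other 2 BIT mice, and the exact two-sided permutation p was 0.2. Its log2 fold change of 0.94 ± 0.28 (SE) did not pass, with an adjusted p of 0.504 in limma-voom. Leaving out each mouse in turn gave 0.70 as the lowest value, when WT replicate 1 was omitted, and 1.24 as the highest, when WT replicate 3 was omitted (adjusted p = 0.146).

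The 5 Ly49 members held between 84.2% and 93.8% of the Ly49 counts in each library. Klra6 took the largest share, 38.4% ± 2.87 in WT and 34.6% ± 2.41 in BIT mice. The share of Klra7 was 12.5%, 16.8% and 19.4% in WT and 22.3%, 21.6% and 25.6% in BIT mice, and that of Klra3 was 17.9%, 20.1% and 14.9% in WT and 14.2%, 12.9% and 14.0% in BIT mice. The groups did not overlap in either share, which the scaling between libraries does not touch. Shares, most directly that of Klra7, do depend on how reads were divided between Klra7 and Gm66837, which is outside the sum. The share of Klra7 was higher and that of Klra3 lower in BIT mice. Each had p = 0.1 in the exact two-sided permutation test, the smallest it can give. Of the 11 Ly49 genes with counts, no other share separated the groups. With no group difference, each share would separate with a probability of 0.1. Shares of the same sum are also not independent, because a rise in any of them lowers others. Klra1 made up 7.69% ± 0.309 in WT and 10.6% ± 2.54 in BIT mice, with overlapping groups (exact permutation p = 0.2), and Klra9 7.83% ± 1.00 and 8.14% ± 2.27. No share of the 11 Ly49 genes with counts could pass a threshold of 0.05 in this design.

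**Figure D2:**
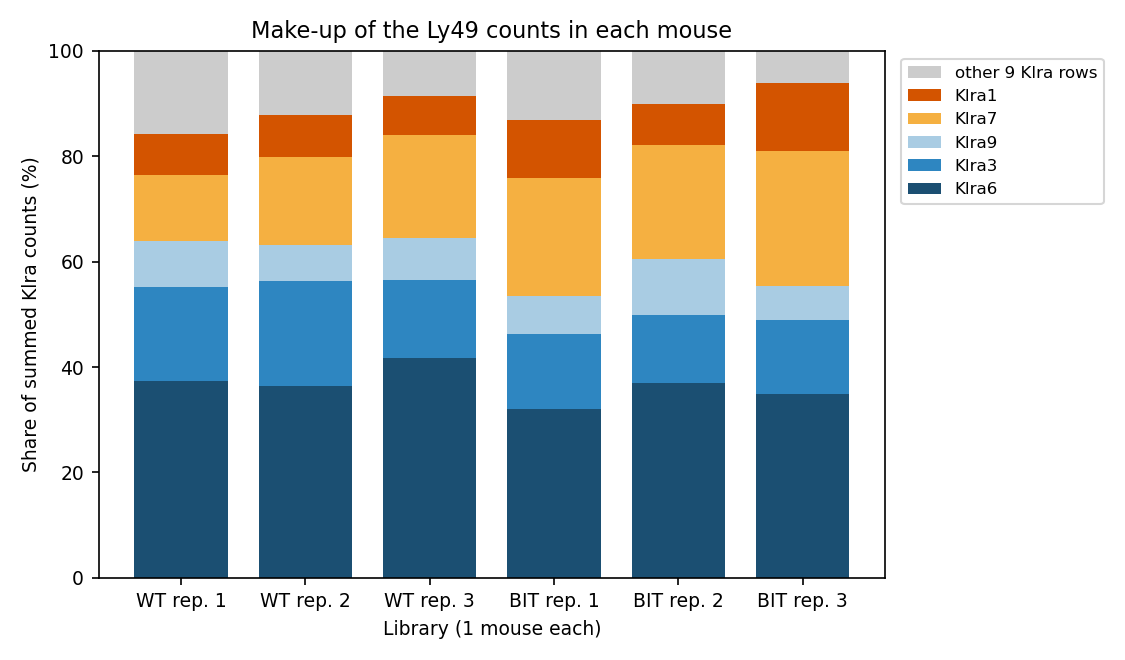
Share (%) of the summed Klra counts that each Ly49 member held, one bar per mouse, with the 9 other Klra rows in grey. The Klra7 segment is between 12.5% and 19.4% in WT and between 21.6% and 25.6% in BIT mice.

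The Ly49 receptors known to activate, Ly49D (Klra4) and Ly49H (Klra8), were close to the limit of what these libraries could measure. Klra4 had 7, 8 and 13 counts in WT and 25, 20 and 8 in BIT mice, and Klra8 had 15, 16 and 19 against 25, 32 and 9. In both genes BIT replicates 1 and 2 were above the WT mice and BIT replicate 3 was among or below them. The log2 fold changes were 1.32 ± 0.65 and 0.63 ± 0.61 (SE), with adjusted p-values of 0.630 and 0.799 in limma-voom.

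The values of Klrd1 lay in the other direction from those of the Ly49 genes. Klrd1 encodes CD94, the shared partner of the NKG2 receptors. It had 3061, 3242 and 2191 counts in WT and 2134, 1693 and 1829 counts in BIT mice, or 57.8, 64.1 and 54.9 CPM against 47.7, 40.2 and 48.8 CPM. Every BIT mouse lay below every WT mouse in CPM, as in 6.69% of all genes, and the same held after quantile normalization, as in 6.0% of all genes, and with TMM scaling. The mean was 22.7% lower in BIT mice, at 45.6 ± 4.65 against 58.9 ± 4.73 CPM. With an SE of 0.12, the log2 fold change of −0.42 had an unadjusted p of 0.00763 and an adjusted p of 0.486 in limma-voom, so it was not called. It had the smallest SE of the members, and without WT replicate 3 it was −0.51, with an adjusted p of 0.237.

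Klrc1 and Klrc2 encode NKG2A and NKG2C. Klrc1 had 3.15, 3.99 and 17.7 CPM in WT and 4.75, 5.08 and 9.23 CPM in BIT mice. Klrc2 had 0.594, 0.459 and 3.20 CPM in WT and 0.954, 1.60 and 2.69 CPM in BIT mice. In both genes WT replicate 3 was the highest library, at 4.95 and 6.08 times the mean of the other WT mice, and BIT replicate 3 was the highest BIT library. The log2 fold changes were 0.08 ± 0.52 and 0.94 ± 0.55 (SE), with adjusted p-values of 0.971 and 0.674 in limma-voom. The direction of Klrc1 depended on the method, at −0.35 in edgeR and −0.34 in DESeq2. Without WT replicate 3, both genes were higher in every BIT mouse than in the other WT mice, and limma-voom gave 0.71 for Klrc1 (adjusted p = 0.358) and 1.60 for Klrc2 (adjusted p = 0.269). The value of Klrc2 was lower, at 0.45, without WT replicate 2, and at 0.34 in edgeR and 0.35 in DESeq2.

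The Klrc sum had 198, 226 and 838 counts in WT and 257, 281 and 449 counts in BIT mice. Klrc3 added at most 4 of these counts in any library. For the sum, the log2 fold change was 0.22 ± 0.52 (SE; adjusted p = 0.925 in limma-voom) with all mice and 0.85 without WT replicate 3 (adjusted p = 0.322), while edgeR gave −0.22. As Klrd1 was lower and the Klrc sum varied, the ratio of Klrd1 counts to Klrc counts was 15.5, 14.3 and 2.61 in WT and 8.30, 6.02 and 4.07 in BIT mice. The ratio was therefore highest in WT replicates 1 and 2 and lowest in WT replicate 3, with the BIT mice in between.

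Klrk1 encodes NKG2D, a receptor that co-stimulates CD8 T cells through the adaptor DAP10. It had 4.59, 5.10 and 21.9 CPM in WT and 4.78, 4.26 and 11.3 CPM in BIT mice. Replicate 3 of each group was the high library, and replicates 1 and 2 of the groups were interleaved. Its log2 fold change was −0.29 ± 0.55 (SE; adjusted p = 0.906 in limma-voom), and was 0.30 without WT replicate 3 (adjusted p = 0.739).

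Klrg1 encodes KLRG1, a marker of terminally differentiated effector cells. It had 36, 49 and 336 counts in WT and 55, 17 and 30 counts in BIT mice. A single library, WT replicate 3, stood 10.2 times above the mean of the other WT mice, and the other 5 libraries, from 0.404 to 1.23 CPM, overlapped between the groups. Fitted over all mice, the log2 fold change was −1.03 ± 0.89 (SE; adjusted p = 0.767 in limma-voom), and without that mouse it was −0.11. It was −1.96 in both edgeR and DESeq2 (adjusted p = 0.676 and 0.698).

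**Figure D3:**
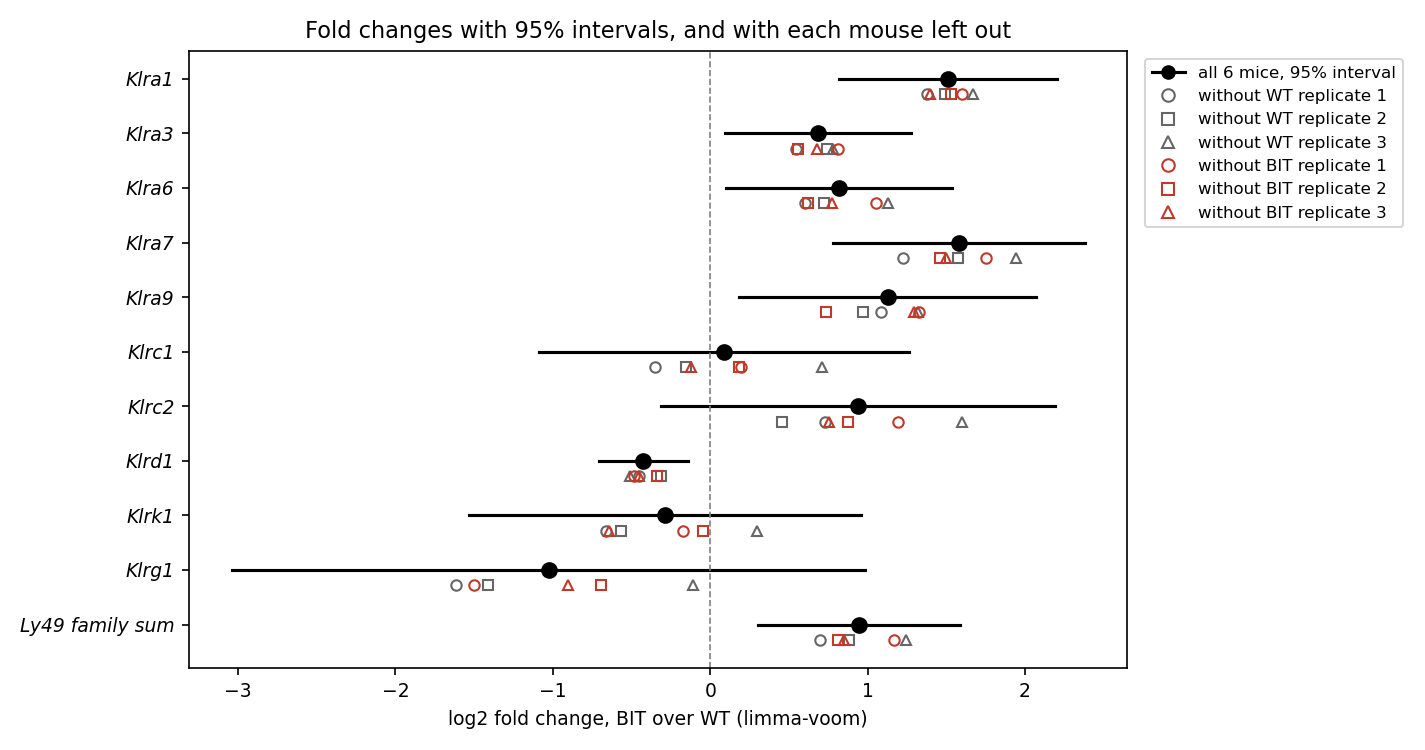
Log2 fold change of BIT over WT mice for each member and the Ly49 family sum (horizontal axis), with black points and 95% intervals for all 6 mice and open markers for fits with 1 mouse left out. The markers of the 5 Ly49 genes, Klrd1, Klrc2 and Klrg1 stay on 1 side of 0 whichever mouse is left out. Those of Klrc1 and Klrk1 fall on both sides.

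WT replicate 3 thus divided the members into groups by how far it stood from the other WT mice. It was at 1.71 to 2.88 times their mean in the 5 Ly49 genes, at 4.52 to 10.2 times in Klrc1, Klrc2, Klrk1 and Klrg1, and at 0.90 times in Klrd1. A ratio above 2 was found in 8 of 10 members, compared with 11.2% of all genes tested. BIT replicate 3 was above the mean of the other BIT mice in 8 of 10 members, but by more than 2-fold in Klrc2 and Klrk1 alone, compared with 11.8% of all genes tested. It did not share the high Klrg1 of WT replicate 3, at 0.981 times the mean of the other BIT mice.

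**Figure D4:**
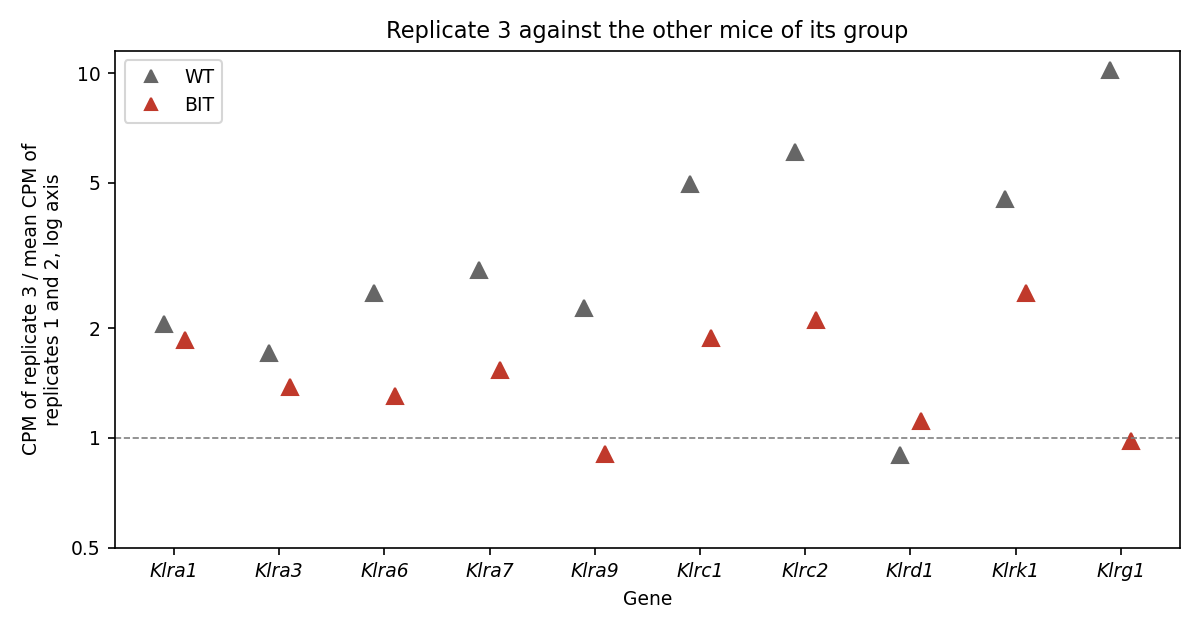
Ratio of the CPM of replicate 3 to the mean CPM of replicates 1 and 2 of the same group, for each member, on a log axis, WT in grey and BIT in red. The WT ratio is highest in Klrg1, at 10.2, where the BIT ratio is 0.981, and both ratios are near 1 in Klrd1.

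Markers of other cells that the sort could have held were low beside the CD8 T cell transcripts, but not beside most members. The Ly49 family sum was 5.37 to 18.1 CPM, which overlapped the NK, γδ T, B cell and myeloid marker sums given below. Of the 9 NK cell markers, summing to 11.8, 18.6 and 74.9 CPM in WT and 12.4, 15.4 and 19.0 CPM in BIT mice, none was called and 1, Klre1, passed at an unadjusted p below 0.05. The high sum of WT replicate 3 came from Gzma, a granule protease that effector CD8 T cells also make, with 2444 counts there and 152 to 427 in the other libraries. Ncr1, which encodes the NK receptor NKp46, had 1 to 21 counts in any library, and Tyrobp, which encodes the adaptor DAP12, had 57, 99 and 49 counts in WT and 52, 41 and 32 in BIT mice. The log2 fold change was above 0 in 3 of the 9 NK markers, with a median of −0.31. The other marker lists had no called gene. The NKT and MAIT markers summed to 1.05 to 2.33 CPM in WT and 1.3 to 2.16 CPM in BIT mice, the γδ T markers to 6.31 to 7.79 and 5.63 to 7.5 CPM, the CD4 T markers to 2.14 to 4.51 and 2.26 to 3.58 CPM, the B cell markers to 10.4 to 16.2 and 8.01 to 10.9 CPM, and the myeloid markers to 11.0 to 30.2 and 9.11 to 13.6 CPM. The highest myeloid sum was again that of WT replicate 3, which held 822 counts of Itgax (CD11c), compared with 129 to 270 in the other libraries. The part of any such cells in the members' values was not tested.

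Of the 21 other genes of the family, 6 passed the filter on low counts and 5 had 0 counts in all libraries. The log2 fold change was above 0 in all 6 tested genes, with a median of 0.82, and none was called. In mean CPM, Klrb1f was an exception, lower in BIT mice (0.504 against 0.591 CPM in WT). Klre1, which encodes an NK receptor of the same gene complex, had 0.945, 1.52 and 3.30 CPM in WT and 2.26, 3.68 and 3.87 CPM in BIT mice. WT replicate 3 lay above BIT replicate 1, as in most Ly49 genes. Its log2 fold change was 1.04 ± 0.32 (SE; adjusted p = 0.508 in limma-voom), and 1.36 without WT replicate 3 (adjusted p = 0.205). Klri2 was next, at 1.02 ± 0.45 (SE; adjusted p = 0.586 in limma-voom), whereas Klrb1c, which encodes the NK1.1 antigen, was at 0.25 ± 0.40 (SE; adjusted p = 0.884 in limma-voom).

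The adaptors and signalling proteins through which these receptors act gave no call. Of 15 genes, 0 were called, and the median log2 fold change was −0.02. At an unadjusted p below 0.05 in limma-voom there were 3 higher and 2 lower in BIT mice, compared with 4.25% and 4.32% of all genes. Hcst, the DAP10 partner of NKG2D, had 22.6, 21.1 and 19.1 CPM in WT and 22.3, 19.5 and 19.4 CPM in BIT mice. The fitted difference, −0.04 on the log2 scale, had a 95% interval from −0.33 to 0.24. On the same scale the difference was 0.29 for the kinase gene Zap70 (adjusted p = 0.531 in limma-voom), −0.24 for Cd247, the T cell receptor ζ chain (adjusted p = 0.531), and 0.25 for Inpp5d, the inositol phosphatase SHIP1 (adjusted p = 0.535). Ptpn6, the phosphatase SHP-1 that ITIMs recruit, had a log2 fold change of 0.29 with a 95% interval from −0.07 to 0.64.

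Ligands of the receptors that the T cells themselves could express showed no called difference in the 6 of 16 listed genes that passed the filter, with a median log2 fold change of 0.14. H2-K1 and H2-D1, the classical class I genes that Ly49 receptors bind, had log2 fold changes of 0.14 (95% interval −0.13 to 0.41) and 0.14 (−0.12 to 0.40). H2-T23, which encodes Qa-1, the ligand of CD94/NKG2, had one of 0.00 (−0.28 to 0.29). The smallest p among the ligands was that of Cdh1, E-cadherin, a ligand of KLRG1, at a log2 fold change of 0.49 ± 0.28 (SE; adjusted p = 0.667 in limma-voom).

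Transcription factors known to act on NK receptor genes gave 0 called of 17, with a median log2 fold change of 0.06. At an unadjusted p below 0.05 in limma-voom, 4 were higher and 1 lower, compared with 4.25% and 4.32% of all genes. Eomes, a T-box factor of memory CD8 T cells and NK cells, had 81.5, 72.1 and 102 CPM in WT and 132, 155 and 137 CPM in BIT mice. All BIT mice were above all WT mice. Its log2 fold change was 0.69 ± 0.11 (SE; adjusted p = 0.112 in limma-voom), and without WT replicate 3 it was called, at 0.80 (adjusted p = 0.0271). Eomes was not called when any other mouse was left out, with adjusted p-values from 0.115 to 0.582 in limma-voom. With all mice kept, it was called in DESeq2, at 0.74 (adjusted p = 5.1e-06). Limma-voom with sample quality weights also called it, at 0.75 (adjusted p = 0.0209), as did limma-voom on replicates 1 and 2 alone (adjusted p = 0.0146). With all mice, Eomes was not called in edgeR (adjusted p = 0.109), with TMM normalization (adjusted p = 0.0976) or in the other settings. Its relative Tbx21 (T-bet) had 15.6, 15.8 and 36.3 CPM in WT and 31, 43.1 and 31.3 CPM in BIT mice, with WT replicate 3 within the BIT range. Its log2 fold change of 0.75 ± 0.27 (SE; adjusted p = 0.538 in limma-voom) was 1.10 and called without WT replicate 3 (adjusted p = 0.0396). Id3 followed, at 0.41 ± 0.16 (SE; adjusted p = 0.551). Zeb2, which acts in terminal effector differentiation, had 3.80, 5.18 and 18.2 CPM in WT and 2.14, 2.23 and 4.03 CPM in BIT mice. WT replicate 3 was again far above the rest, as it was in Klrg1. With all mice the log2 fold change was −1.30 ± 0.56 (SE; unadjusted p = 0.0463, adjusted p = 0.575 in limma-voom). Without that library it was −0.79 (adjusted p = 0.302 in limma-voom).

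Among 13 genes of memory-phenotype CD8 T cells, 2 were called, both higher in BIT mice, and the median log2 fold change was 0.25. At an unadjusted p below 0.05 in limma-voom, 7 passed as higher, compared with 4.25% of all genes, and 0 as lower. The log2 fold change was above 0 in 9 genes. It was below 0 in Cx3cr1 (−1.60 ± 0.92 SE), S1pr5 (−0.84 ± 0.63), Itga4 (−0.40 ± 0.18) and Ccr7 (−0.13 ± 0.08), with adjusted p-values from 0.586 to 0.737 in limma-voom. Il2rb, the IL-15 receptor β chain, had 253, 203 and 273 CPM in WT and 393, 443 and 456 CPM in BIT mice (log2 fold change 0.77 ± 0.09 SE, adjusted p = 0.0250 in limma-voom). Il18r1, the IL-18 receptor, had 68.8, 65.1 and 76.6 CPM in WT and 106, 120 and 114 CPM in BIT mice (log2 fold change 0.63 ± 0.08 SE, adjusted p = 0.0399 in limma-voom). Both remained called without WT replicate 3, but neither was when any one of the other 5 mice was left out, with adjusted p-values from 0.0690 to 0.244 for Il2rb and from 0.10 to 0.277 for Il18r1. Il7r, the IL-7 receptor α chain, was next by p, at 0.54 ± 0.09 (SE; adjusted p = 0.154 in limma-voom). In these 3 genes WT replicate 3 was within 1.5-fold of the other WT mice and below all BIT mice, whereas in Cx3cr1, a chemokine receptor of effector cells, it held 845 counts against 28 to 139 in the other libraries. S1pr5, an egress receptor of effector and NK cells, had 292 counts in WT replicate 3 and 33 to 70 in the others. Without WT replicate 3, the log2 fold change of Cx3cr1 was −0.76 (adjusted p = 0.492 in limma-voom). The list was compiled with earlier results of these data known.

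The genes most like the members over the 6 libraries, by Pearson's r with the mean z score of the members' log2 CPM, were Gm12229 (r = 0.994), Nsmce3 (0.992), Plek (0.992), Aoc2 (0.990) and Gm21781 (0.990). With the mean of each group removed, they were Gm12229 (0.998), Gm21781 (0.997), Gm42611 (0.997), Apbb3 (0.996) and Gm49902 (0.996). With only 6 libraries, which the genes share together with their depth, 304 genes had an r above 0.9, and 639 did with group means removed. These values are a description.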

How the data were processed

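Stranded, ribosome-depleted total RNA libraries were made from sorted CD8 T cells of 3 WT and 3 BIT mice. As deposited, each value is an estimated count of a gene in a library, made by the authors with Cutadapt 1.18, STAR 2.7.0f on GRCm39 and RSEM 1.3.1 on Gencode M38 (versions from the submitters' processing notes). The strand setting of the counting is not given in the sources used here. Counts were rounded, and 16105 genes kept by filterByExpr (edgeR 4.0.16) entered limma 3.58.1 in R 4.3.3 (voom, quantile-normalized) and Benjamini-Hochberg adjustment over all of them, with calls at an adjusted p below 0.05. CPM were computed from the deposited counts. Exact permutation tests were two-sided, on log2(CPM + 0.05), or on percentages for shares. DESeq2 1.42.0 and edgeR's quasi-likelihood test were alternatives. Leaving out replicate 3 of both groups and summing Klrc1, Klrc2 and Klrc3 were added, as were the alternatives for list genes, after seeing the data. The fits were also run on simulated counts without an outlying library, and no result given here rests on that run. Total counts per library were 37467678 to 52922675, which makes counting error small beside the spread between mice except in genes with few counts.

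The members and gene lists were chosen with earlier results of these data known. All 10 members are named. From each list, genes called and up to 3 with the smallest p are named, with genes that encode the receptors' direct partners, ligands or markers of contaminating cells given for their level. Klra4, Klra8, Ptpn6, Klrb1c, Itgax, Zeb2, Cx3cr1, S1pr5, Itga4 and Ccr7 were named after their values were seen. Shared stretches were counted in Gencode M39 transcripts, which hold 78263 of the identifiers. Same-numbered WT and BIT libraries had deviations correlated at 0.139, 0.0255 and 0.332, so the numbers were not taken to pair the mice.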

Additional observations from a re-analysis of the deposited data

How the results depend on the processing

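The number of members called at an adjusted p below 0.05 was 0 under every alternative fitted, and also under the stricter call (over 2-fold, adjusted p below 0.01); at an unadjusted p below 0.05 it was 6, and 3 to 8 over the alternatives. Members higher in BIT mice numbered 6 to 8, and their median log2 fold change was between 0.44 (edgeR) and 0.95 (without WT replicate 3). The Ly49 family sum kept its direction in all 16 alternatives, between 0.70 and 1.24, with adjusted p-values between 0.113 and 1.00, and over the 5 Klra members alone it was 0.99. With a mean of at least 1 CPM required, Klra9 was not tested.

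The log2 fold change of Klrc1 reversed to −0.35 in edgeR, −0.34 in DESeq2, −0.20 with the replicate block and −0.20 with replicate 3 as a batch, and was between −0.35 and 0.71 with a mouse left out. The Klrc sum reversed to −0.22 in edgeR, −0.22 in DESeq2, −0.060 with the replicate block and −0.066 with replicate 3 as a batch, and was between −0.21 and 0.85 with a mouse left out. With a mouse left out, Klrk1 was between −0.66 and 0.30. Klrg1 was between −1.62 and −0.11 with a mouse left out, at −1.96 in edgeR and DESeq2, at −1.65 with replicate 3 as a batch and at 0.032 with replicates 1 and 2 alone. Klrc2 was between 0.45 and 1.60 with a mouse left out, and at 0.34 in edgeR and 0.35 in DESeq2. The cause of these changes was not tested. The replicate block gave 0 members called, 6 members higher, a median of 0.67 and a Ly49 family sum of 0.90 (adjusted p = 0.140 in limma-voom), and the correlations between same-numbered libraries do not show that the numbers pair the mice.

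Over all genes, 22 were called, against 14 in edgeR, 125 in DESeq2, 42 with replicate 3 as a batch, 71 in replicates 1 and 2 alone and 1 to 37 with a mouse left out. Klra1, Klra3 and Klra9 rested on fewer than 100 counts in every library, where counting error limits the precision. Klra7, Klrc2 and Klrg1 did so in some of the libraries.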
